A study of Drosophila melanogaster with 3 samples.

Results

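The genes described here encode the aminoacyl-tRNA synthetases of Drosophila melanogaster, and the question was whether their promoters carry the protein CG5245 in embryos. Members were chosen by name alone: every protein-coding gene on the main chromosome arms whose symbol ends in a three-letter amino acid code followed by RS or RS-m in the Ensembl BDGP6 gene models. This gave 35 of 13945 protein-coding genes, 15 with the suffix -m, called mitochondrial, and 20 without it, called cytoplasmic. This class rests on the symbol alone. GlnRS, GlyRS, HisRS, LysRS and ThrRS have no -m counterpart, and whether any of them also serves mitochondria was not examined. The data come from chromatin immunoprecipitation followed by sequencing (ChIP-seq) of 3 biological replicates of 1 group. This group was whole embryos, 0 to 16 h old and of both sexes, from a transgenic line that stably expresses CG5245 with a C-terminal green fluorescent protein tag. The pulldown used an antibody against the tag, per the description in the labels, although the antibody field names CG5245. The promoter that drives the transgene is not given in the labels, whole embryos mix all cell types, and no untagged or other genotype was analysed here, so no contrast between genotypes or stages was possible. CG5245 carries C2H2 zinc fingers, a fold common among DNA-binding proteins.

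Aminoacyl-tRNA synthetases join each amino acid to its matching tRNA, and so set which amino acid a codon is read as. Their products feed the ribosome. Flies encode in the nucleus a cytoplasmic set and a largely separate set that is imported into mitochondria and charges the tRNAs of the mitochondrial genome. GluProRS joins the glutamyl and prolyl enzymes in a single polypeptide, and alpha-PheRS and beta-PheRS are the subunits of a single cytoplasmic enzyme. As housekeeping genes, the cytoplasmic members are needed in every growing cell.

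CG5245 was found at the promoters of 7 of the 35 synthetase genes (20%), all of them cytoplasmic. This share was near the 15.8% of all protein-coding genes. The 7 genes were GluProRS, IleRS, SerRS, ThrRS, AspRS, AsnRS and ValRS, in order of signal. A gene was called occupied when the summit of a peak of the authors' reproducible set lay within 500 bp of any of its transcription start sites (TSSs). The sequences around 5 of these summits are shown because they are the DNA at which the reproducible signal peaked. Each runs 5′ to 3′ on the gene's own strand of the dm6 assembly, read from the RefSeq copy of Release 6, with the summit at its 51st base. For SerRS, whose window lies largely in a 5′ UTR, only 30 bases are given, with the summit at the 10th. Capitals mark matches to the motifs described further on: TATAAA or its reverse complement in SerRS and ThrRS, and the reverse complement of CGATA in AsnRS.
GluProRS (chr3R:23958535-23958635, minus strand): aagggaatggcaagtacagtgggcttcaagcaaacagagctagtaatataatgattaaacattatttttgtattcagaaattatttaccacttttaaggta
IleRS (chr3L:22288466-22288566, plus strand): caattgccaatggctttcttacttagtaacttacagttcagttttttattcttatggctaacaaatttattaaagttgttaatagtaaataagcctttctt
SerRS (chr2L:3037361-3037390, minus strand): aaacagaaaaTATAAAaaaacatTATAAAa
ThrRS (chr2L:12103529-12103629, plus strand): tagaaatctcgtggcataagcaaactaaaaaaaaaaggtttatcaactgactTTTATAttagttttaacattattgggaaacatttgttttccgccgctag
AsnRS (chr2L:19131947-19132047, minus strand): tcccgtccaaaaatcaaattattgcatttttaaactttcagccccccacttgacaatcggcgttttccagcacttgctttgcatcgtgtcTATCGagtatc

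The DNA at all 7 summits was richer in A and T than the DNA beside it. At GluProRS 69.3% of the 101 bases centred on the summit were A or T, against a mean of 52.0% in windows 500 bp to either side. The values were 73.3% against 44.6% at IleRS, 74.3% against 44.1% at SerRS and 69.3% against 50% at ThrRS. AspRS had 67.3% against 52.5%, AsnRS 57.4% against 47.5% and ValRS 59.4% against 54.5%. The summit was therefore richer in A and T than its flanks at 7 of 7 occupied members, by a median of 17.3 percentage points. Over all 1799 reproducible promoter peaks this median was 9.41 points, and 1327 of them were richer at the summit. The median A and T content was 69.3% at the summits of the occupied members and 64.4% at all reproducible promoter summits, and AsnRS and ValRS lay below the value for all. Among the 20 members that had only a candidate region the median difference was also 9.41 points and 16 were richer, with summit values from 35.6% at LysRS to 79.2% at ProRS-m. No test was made of these differences.

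GluProRS, which charges both glutamate and proline, had the highest signal of the 35 genes. Its peak (3R from 23958496 to 23958652) had a pooled signal of 349 and ranked 308 in the reproducible set of 3670 peaks. It ranked 325, 300 and 364 in replicates 1, 2 and 3. The signal is the score the authors' peak caller gave to a region, and a rank of 1 is the highest signal of a list. IleRS, the isoleucyl enzyme, followed with a signal of 302 (3L from 22288393 to 22288597) and ranks of 542, 543 and 322 in the 3 replicates. Both peaks stood high in every replicate, and no replicate placed either below rank 543. The seryl enzyme gene SerRS had a signal of 247 (2L from 3037183 to 3037578) and ranked 664, 647 and 709. ThrRS, for the threonyl enzyme, had a signal of 220 (2L from 12103381 to 12103776) and ranked 1054, 796 and 1114. All 4 signals were well above the median of reproducible promoter peaks, which was 153.

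The other 3 occupied genes were lower in the lists. AspRS encodes the aspartyl enzyme, and its peak (2R from 12879869 to 12880264) had a signal of 157 and ranked 2322, 2085 and 862 in replicates 1, 2 and 3. This summit lay in introns of both AspRS and the overlapping gene Nmda1, 217 bp upstream of an internal TSS. AsnRS, for the asparaginyl enzyme, had a signal of 151 (2L from 19131799 to 19132194) and ranked 2254, 1458 and 2352. AspRS thus lay just above the median promoter peak and AsnRS just below it. ValRS, for the valyl enzyme, was at the edge on every measure. Its signal was 93.2 (2R from 13198171 to 13198566), close to the lowest in the reproducible set, 92.4, and its summit lay 481 bp from the TSS. It ranked 3269 and 3476 in replicates 1 and 2, and 3889 in replicate 3 by a region at another summit. The peaks of 6 of the 7 genes, all but ValRS, overlapped the 3670 regions of highest signal (top regions) of all 3 replicates. Among all protein-coding genes 10.7% had such a peak, and among the synthetase genes 17.1% did.

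**Figure D1:**
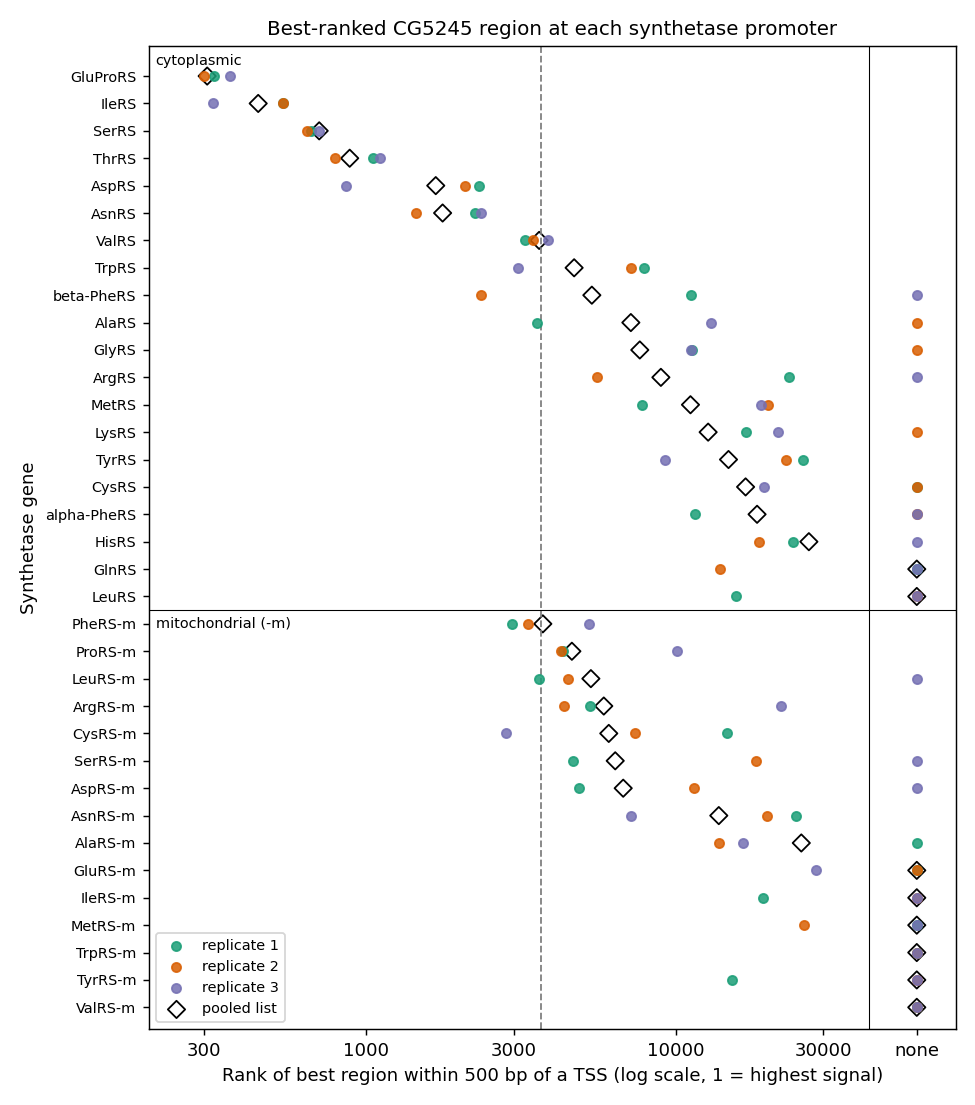
Rank (log axis, 1 is the highest signal) of the best region within 500 bp of a TSS of each of the 35 synthetase genes, in replicates 1, 2 and 3 (filled circles) and in the pooled list (open diamonds), with cytoplasmic genes above mitochondrial ones. The dashed line is rank 3670, the size of the reproducible set, and the column at the right holds lists with no region. GluProRS, IleRS, SerRS, ThrRS, AspRS and AsnRS lie left of the line in every list, and no mitochondrial gene does.

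The promoter architecture of the 7 genes had a common feature that the choice of members did not use. Every one of their summits lay within 500 bp of the TSS of a second gene on the opposite strand. Of all reproducible promoter peaks, 38.6% had TSSs of different genes on both strands within that distance. This share counts peaks, whereas the 7 summits were reached through genes, which favours peaks shared between genes. The comparison is therefore not like for like. Counted by gene, from TSS to TSS, 1311 of the 2210 occupied protein-coding genes had an opposite-strand TSS within 500 bp. By that count 6 of the 7 occupied members had one, and the gap was not tested. The GluProRS summit was 194 bp from its TSS and 66 bp from that of AP-1sigma, which encodes a clathrin adaptor subunit. The ValRS summit was 32 bp from the TSS of Kdm4B, a histone lysine demethylase gene, and the AspRS summit was 163 bp from that of Nmda1. At IleRS the distances were 149 bp to IleRS and 321 bp to Hem, a gene of the actin-regulating WAVE complex. At ThrRS they were 172 bp to ThrRS and 294 bp to Patsas. At AsnRS they were 43 bp to AsnRS and 326 bp to DCTN6-p27, a dynactin subunit gene. The SerRS summit lay in the 5′ UTR of SerRS, 22 bp from its TSS and 30 bp from that of CG17260. The nearest TSS was thus that of the synthetase gene in 4 cases and of the neighbour in 3, and which gene of a pair the bound protein acts on cannot be told from a summit.

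Close opposite-strand TSSs were also frequent among the members as a whole, counted without regard to which side of the TSS they lay on. An opposite-strand TSS lay within 500 bp of a TSS of 22 of 35 members (62.9%), against 30.8% of all protein-coding genes. It was 15 of 20 among cytoplasmic and 7 of 15 among mitochondrial members. Of the 22 members with such a neighbour 6 were occupied, and of the 13 without one 1 was. Over all protein-coding genes the occupied share was 30.5% with an opposite-strand TSS and 9.32% without. Members also differed in their number of TSSs. Of the 9 members with more than 1 TSS 5 were occupied, and of the 26 with a single TSS 2 were, against 26.4% and 12.1% of all protein-coding genes of those kinds. The part of these features in the occupied share of the members was not tested.

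How far the synthetase genes as a whole stood above protein-coding genes in general depended on how a peak was counted. The reproducible set had 7 of 35 members (20%), against 15.8% of protein-coding genes, a share near the background. When peaks in the lower 50% of signal were dropped, the shares were 17.1% of members and 8.60% of protein-coding genes. In the top regions of each replicate the count was 10 in replicate 1, where 16.5% of protein-coding genes were occupied, 9 in replicate 2 (15.4%) and 8 in replicate 3 (15.1%). The share of members was 25.7% ± 2.86 and that of protein-coding genes 15.7% ± 0.728 (SD, n = 3 replicates). The same 35 genes were scored each time, so this SD does not cover the small number of genes, and the gap was not tested. When a peak counted for its nearest TSS alone, 4 members (11.4%) were occupied, namely IleRS, SerRS, ThrRS and AsnRS, against 11.5% of protein-coding genes.

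The occupied genes were all cytoplasmic. Of the 20 cytoplasmic genes 7 (35%) were occupied, and of the 15 mitochondrial genes 0, a difference of 35 percentage points. Among all protein-coding genes the share was 15.8%. In the top regions of replicate 1, 8 cytoplasmic genes (40.0%) and 2 mitochondrial genes (13.3%) were occupied. In replicate 2 it was 8 (40.0%) and 1 (6.67%), and in replicate 3 it was 7 (35%) and 1 (6.67%). Of all protein-coding genes 16.5%, 15.4% and 15.1% were occupied in the top regions of replicates 1, 2 and 3. The cytoplasmic share was higher than the mitochondrial share in 3 of 3 replicates, by 29.4 ± 3.47 points (SD, n = 3). An exact two-sided sign-flip permutation test over the replicates gave p = 0.25, the smallest that 3 replicates allow. So few replicates cannot reach a smaller p, and their spread does not cover the small number of genes.

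The genes in the top regions differed between replicates. Of 13 members that were there in any replicate, 6 were there in all 3, all of them cytoplasmic, and 7 in only 1 or 2 replicates. The same count was not made over all protein-coding genes, so this turnover cannot be called a trait of the members. The top regions held the 7 occupied genes in replicates 1 and 2 and all of them but ValRS in replicate 3. Each replicate added a different cytoplasmic gene, AlaRS (rank 3559) in replicate 1, beta-PheRS (2355) in replicate 2 and TrpRS (3096) in replicate 3. AlaRS had no region at all within 500 bp in replicate 2, and beta-PheRS had none in replicate 3. Of the mitochondrial genes PheRS-m was in the top regions of replicates 1 and 2 (ranks 2964 and 3342) and ranked 5268 in replicate 3. LeuRS-m was there in replicate 1 only (3614) and CysRS-m in replicate 3 only (2834).

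**Figure D2:**
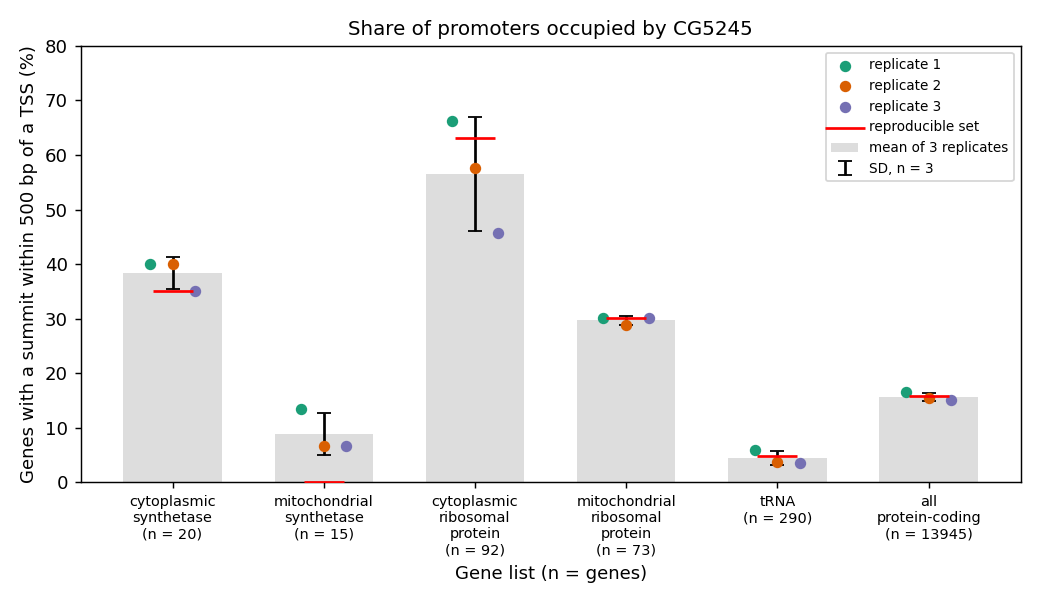
Percent of genes with a summit within 500 bp of a TSS, for cytoplasmic and mitochondrial synthetase genes, cytoplasmic and mitochondrial ribosomal protein genes, tRNA genes and all protein-coding genes. Circles are the top regions of replicates 1, 2 and 3, grey bars their mean with the SD (n = 3), and red lines the reproducible set. Cytoplasmic synthetase genes averaged 38.3% and mitochondrial ones 8.89%, on either side of the 15.7% of all protein-coding genes.

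The 28 members that were not occupied fell into graded classes. The pooled list holds 30000 regions of any rank, with signals down to 24.6. By its title it includes background as well as peaks, so a low-ranked candidate need not be binding. A candidate region of this list lay within 500 bp of a TSS of 27 of 35 members (77.1%), against 51.2% of protein-coding genes. It was 18 of 20 cytoplasmic and 9 of 15 mitochondrial members. Where such a candidate existed, its median signal was 64.9 in cytoplasmic and 65.2 in mitochondrial members, at median ranks of 6269 and 6086, although the highest signal was 349 in cytoplasmic and 91.4 in mitochondrial members. The closest to the reproducible set was PheRS-m, which charges phenylalanine in mitochondria. It ranked 3729 with a signal of 91.4, just below the lowest reproducible signal of 92.4, and ValRS was just above it at rank 3628. ProRS-m (rank 4627), TrpRS (4705), LeuRS-m (5329) and beta-PheRS (5367) came next, followed by ArgRS-m, CysRS-m, SerRS-m, AspRS-m, AlaRS, GlyRS and ArgRS at ranks from 5865 to 8964. MetRS, LysRS, AsnRS-m, TyrRS, CysRS, alpha-PheRS, AlaRS-m and HisRS had candidates at ranks from 11167 to 26916. The remaining 8 genes, GlnRS, LeuRS, GluRS-m, IleRS-m, MetRS-m, TrpRS-m, TyrRS-m and ValRS-m, had none in the pooled list. TrpRS-m and ValRS-m had none in any replicate either.

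Because 0 of the 15 mitochondrial genes were occupied, no amino acid could have both of its genes occupied. Of 16 cytoplasmic and mitochondrial pairs for 1 amino acid, 7 had an occupied cytoplasmic gene, GluProRS counting with both GluRS-m and ProRS-m, and 0 an occupied mitochondrial one. The cytoplasmic gene ranked higher in the pooled list in 11 pairs. IleRS ranked 450 and ValRS 3628, whereas IleRS-m and ValRS-m had no pooled candidate. SerRS ranked 708 and SerRS-m 6385. In the other 5 pairs, those of ArgRS, CysRS, LeuRS, alpha-PheRS and beta-PheRS, the mitochondrial gene ranked higher, with LeuRS-m at 5329 and LeuRS without a pooled candidate. Among cytoplasmic genes, occupied genes were found in each fold class of the enzyme and both inside and outside the multisynthetase complex, as known from mammals. Class I enzymes, whose catalytic domain is a Rossmann fold, were occupied in 2 of 9 cases, class II enzymes in 4 of 10, and GluProRS, which has domains of both classes, was occupied. Of the 8 genes whose mammalian counterparts belong to the complex, 3 were occupied (GluProRS, IleRS and AspRS), and of the other 12 genes 4 were. Over all protein-coding genes the share was 15.8%, to which 2 of 9 is close. These groupings were made after the values were seen.

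**Figure D3:**
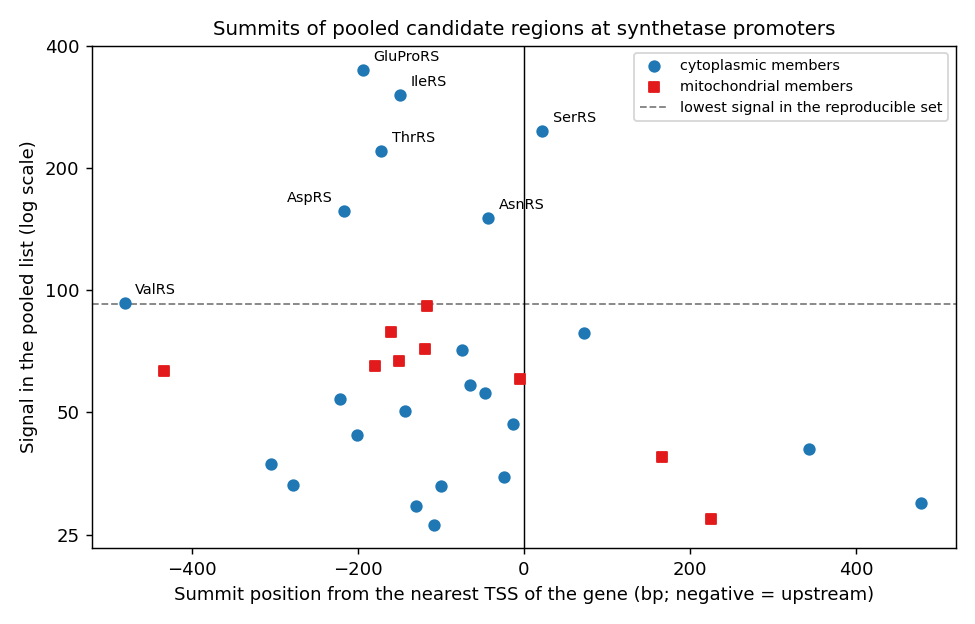
Position of each pooled candidate summit within 500 bp of a synthetase TSS (x axis, bp from the nearest TSS of the gene, negative is upstream) and its signal in the pooled list (y axis, log scale). Blue circles are cytoplasmic and red squares mitochondrial members, the dashed line is the lowest signal of the reproducible set (92.4), and the occupied genes are named. Of the 7 named summits 6 lie upstream, and no mitochondrial summit reaches the line.

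Summits of the members lay mostly upstream of the start site. Among occupied members 6 of 7 did, at a median of -172 bp, and the exception was SerRS. Among the 20 members with a candidate only, 16 of the best summits were upstream, at a median of -104 bp. The same count was not made over all reproducible promoter peaks, so this position cannot be called particular to the members. The distances of occupied members ran from 22 bp (SerRS) to 481 bp (ValRS). The next distances below 500 bp belonged to candidates that were not in the reproducible set, with SerRS-m at 433 bp. The nearest reproducible summit beyond 500 bp was that of LeuRS-m, at -844 bp.

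Sequence motifs were read in the promoters of all 35 members, taken as 250 bp before to 50 bp after the TSS of the transcript with the longest coding sequence. Both strands were searched for 9 motifs. The E-box CAGCTG, known as Motif 5 of fly core promoters, had the widest gap to the background. It occurred in 18 of 35 synthetase promoters (51.4%), against 17.9% of protein-coding promoters. It was present in 10 of 20 cytoplasmic and 8 of 15 mitochondrial promoters, and in 3 of the 7 occupied and 15 of the 28 other synthetase promoters. Over all protein-coding genes it was in 24.9% of occupied and 16.6% of other promoters, and neither difference was tested. None of the 7 summits had it within 50 bp, where 5.73% of all reproducible promoter summits did. Mitochondrial ribosomal protein genes had it in 41 of 73 promoters (56.2%) and cytoplasmic ones in 10 of 92 (10.9%), so the synthetase genes were not the only translation genes with it. Its first base lay at a median of -32 bp from the TSS, and 18 of the 22 matches (81.8%) began from 100 bp upstream to the end of the window. Over all protein-coding promoters the median was -52 bp and the share 65.5%. To show the match in its setting in occupied and other genes, 26 bases are printed on the gene's strand of dm6 for several members of both compartments, with the match in capitals; likeness of the flanking bases was not measured. The first 3 genes are occupied and the rest are not.
GluProRS (chr3R:23958348-23958373, minus strand): tagacgttagCAGCTGgccgtactcg
IleRS (chr3L:22288576-22288601, plus strand): gtgctgtcgtCAGCTGattatcaagg
SerRS (chr2L:3037517-3037542, minus strand): ctattttgaaCAGCTGctaaaagcaa
ArgRS (chrX:15844177-15844202, minus strand): gtgacatcacCAGCTGttatcgttat
LeuRS-m (chr3L:4825853-4825878, plus strand): tgcagagaaaCAGCTGttcgattgta
MetRS-m (chr3R:14259981-14260006, minus strand): actggtggcaCAGCTGttcaatgtta
TrpRS-m (chr3L:17849690-17849715, plus strand): tcactgttcaCAGCTGtcgtaccggc

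Other motifs were closer to their background or rested on few genes. The BEAF-32 motif CGATA, bound by an insulator protein, occurred in 22 of 35 promoters (62.9%), against 47.4% of protein-coding promoters. It was in 6 of the 7 occupied promoters, but within 50 bp of the summit only at AsnRS and ValRS, where 22.5% of all reproducible promoter summits had it. TATCGATA, the element bound by the transcription factor DREF, contains the reverse complement of CGATA and occurred in 6 promoters (17.1%, against 9.08%): AlaRS, ArgRS, AspRS, IleRS, PheRS-m and TrpRS. It was at no member summit. TATAAA was found in 18 promoters (51.4%, against 45.3%) and within 50 bp of the summits of SerRS and ThrRS, where 18.5% of all reproducible promoter summits had it. GAGAG, bound by the GAGA factor, was in 6 (17.1%, against 30.2%), and AGATAA, bound by GATA factors, in 5 (14.3%, against 18.4%). GGTCACAC, part of the core promoter Motif 1, was in 4 promoters (11.4%, against 7.74%) and at the ValRS summit. CACGTG, the E-box bound by Myc, was in the promoters of GlnRS and LeuRS-m only (5.71%, against 4.08%). TGATGNAA, a form of the element through which ATF4 acts on synthetase genes in mammals, was in those of CysRS and beta-PheRS only (5.71%, against 4.06%). The matches are letters in the DNA, not binding sites, and no test was made.

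**Figure D4:**
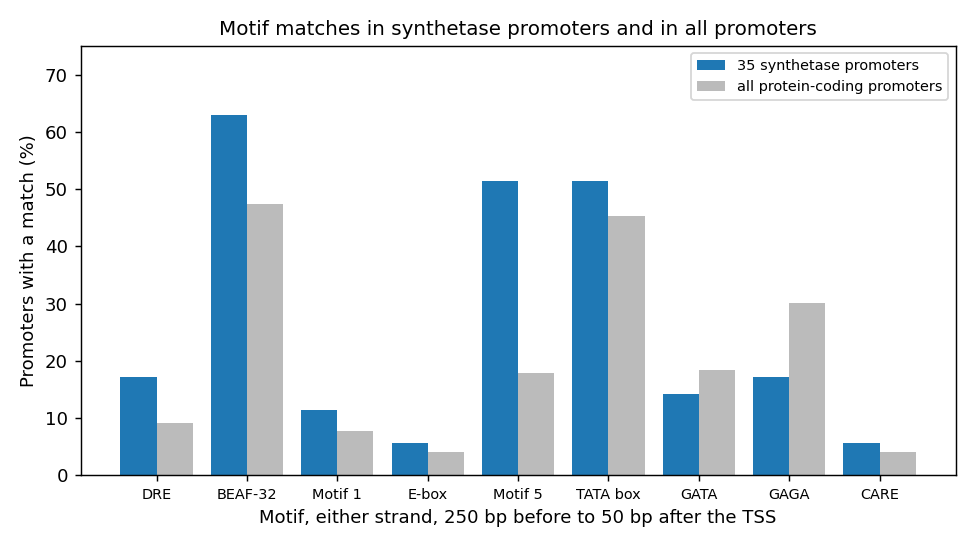
Percent of promoters with a match to each of 9 motifs on either strand, for the 35 synthetase genes (blue) and all 13945 protein-coding genes (grey). Motif 5, the E-box CAGCTG, shows the widest gap, 51.4% against 17.9%.

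Genes that work with the synthetases were looked at through a list of 17 symbols, of which 16 matched a gene model and 4 were occupied, where 15.8% of all protein-coding genes were. Among proteins that bind synthetases or finish mitochondrial tRNA charging, 1 of 7 was occupied, close to that background. This was GatA, a subunit of the mitochondrial enzyme that amidates glutamate on tRNA, with a signal of 193 and ranks of 1024, 1137 and 2108 in replicates 1, 2 and 3. Its partner genes GatB and GatC were not occupied, nor were AIMP1, AIMP2 and AIMP3, which encode scaffold proteins of the multisynthetase complex, nor Slimp, a synthetase-like gene. Among genes grouped here under sensing and delivery of charged tRNA, 3 of 9 were occupied. This group also held regulators such as Thor and Myc that do neither. eEF1alpha1, the elongation factor that brings charged tRNA to the ribosome, had a signal of 137 and ranks of 1036, 2247 and 6517. Thor, the 4E-BP repressor of translation, had a signal of 130 and ranks of 2630, 2483 and 2456. Gcn2, the kinase that senses uncharged tRNA, had a signal of 120 and ranks of 1485, 2221 and 12770, and like eEF1alpha1 it was outside the top regions of replicate 3. The list's other matched genes, crc (the fly ATF4), PEK, eEF1alpha2, mEFTu1, mEFTu2 and Myc, were not occupied.

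Set beside other genes of translation, the cytoplasmic synthetase genes lay between the classes. Their reproducible share of 35% compares with 58 of 92 (63.0%) for cytoplasmic ribosomal protein genes, 22 of 73 (30.1%) for mitochondrial ribosomal protein genes and 14 of 290 (4.83%) for tRNA genes. Mitochondrial members had 0 of 15, where mitochondrial ribosomal protein genes had 30.1%. These differences between lists were not tested.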

How the data were processed

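The files were lists of regions from ChIP-seq of CG5245 fused to green fluorescent protein, in 3 biological replicates. Per the text deposited beside the lists, the authors called candidate regions per replicate and on the pooled replicates, and took from these a reproducible set by the irreproducible discovery rate, which compares how regions rank across replicates. No source used here names the aligner or the peak caller. The signal value per region and the −log10 q value are the authors' own, as deposited; only signal was used here, for ranks and cuts inside single lists. The dm6 lists held 3670 reproducible, 30000 pooled, 30000, 30000 and 29608 regions. Lists on dm3 were not used. Read counts and the control were not analysed here, so depth is unknown and no counting interval is given.

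Gene models were those of Ensembl release 115. Sequence came from the RefSeq Release 6 genome, in which 99.8% of annotated start codons read ATG. Distances run from the summit (start plus offset) to the TSS. Top regions are the 3670 of highest signal in each replicate. Python 3.11.15, pandas 2.3.3 and numpy 2.4.6 were used, and the calls were tested on simulated summits. The members and lists were chosen with earlier results of these data known, so counts are read against the background share and no test over genes was made. All members, every gene within 500 bp of an occupied member's summit and the occupied related genes are named by rule, and unoccupied related genes are named in addition. Replicates are biological per the labels, and p-values measure only their spread.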

Additional observations from a re-analysis of the deposited data

How the results depend on the processing

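The occupied share of 20% of members (15.8% of all protein-coding genes) and the difference of 35 points between cytoplasmic and mitochondrial members were the same with 1 TSS per gene, where 13.8% of protein-coding genes were occupied. ValRS was lost in 4 alternatives of distance, signal or replicate overlap, each giving 17.1% of members and a difference of 30 points. It was also lost in further alternatives given below. The protein-coding share was 12.5% with summits within 250 bp and 8.60% without peaks in the lower 50% of signal. It was 10.7% or 10.1% when a peak had to overlap a top region of each of the 3 replicates by 1 bp or by 50%. Summits within 1000 bp added LeuRS-m, giving 22.9% and 28.3 points (18.5% of protein-coding genes). With the nearest TSS only, AspRS, GluProRS and ValRS were lost, leaving 4 members, 11.4% and 20 points (11.5%). Pooled candidates of any rank gave 27 members, 77.1% and 30 points (51.2%). Leaving out 1 replicate gave 17.1% to 22.9% and 28.3 to 30 points, with 11.8% to 12.5% of protein-coding genes. ValRS was lost without replicate 1 or 2, and PheRS-m was gained without replicate 3. Here top regions of 1 remaining replicate were kept where they overlapped a top region of the other by 1 bp. The calling rule thus changed along with the replicates, and the reproducible set was not remade. The difference kept its sign in all 11 alternatives. No paired analysis was possible because the design has 1 group. Depth is unknown, and a gene with no region may have been below what these lists could hold.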

Other observations

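Reproducible peaks also lay near synthetase genes outside the promoter window. The strongest was at -844 bp from the TSS of LeuRS-m, with a signal of 349 and rank 311, in an intron of Dhc64C, which encodes a dynein heavy chain and starts on the opposite strand. A summit at -1061 bp from a TSS of AlaRS had a signal of 131 and lay between genes. In HisRS a summit of signal 111, 2174 bp downstream of its TSS, lay in a coding exon that is also an intron of Bx. Summits 1873 bp downstream of the TSS of alpha-PheRS and 2662 bp downstream of that of SerRS-m had signals of 150 and 104, the first in the 5′ UTR of CG17982 and the second between genes. These peaks were picked because they lay within 3000 bp, and no function was tested for any of them.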
